A study of Mesocricetus auratus with 8 samples.

Results

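Myoblasts become multinucleated myotubes by joining their membranes, and the 8 genes described here encode parts of that machinery. Mymk encodes myomaker and Mymx encodes myomixer (also called myomerger), the muscle-specific membrane proteins that together drive fusion. Dysf (dysferlin) and Myof (myoferlin) are ferlins, large calcium-binding membrane proteins. Myoferlin is known for its part in myoblast fusion and dysferlin for resealing of the muscle membrane. Cdon and Boc are cell surface receptors of the immunoglobulin superfamily that promote myogenic differentiation through cell contact, Jam3 is a junctional adhesion molecule, and Dock1 activates the GTPase Rac1 during the actin remodelling that precedes fusion. The genes were chosen by symbol from these roles, with the cold against control values of these libraries already known, so that the comparison between groups is given for them as a description, and where calls are counted they support nothing. All 8 were among the 17590 genes with values, and all 8 were among the 12506 with enough reads to enter the fit.

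The libraries came from primary satellite cells (SCs, the muscle stem cells) of wild-type Syrian hamsters, a hibernating rodent, taken from hindlimb muscle of mature males and purified by preplating. SCs were kept in growth medium with serum, chick embryo extract and basic fibroblast growth factor, not in differentiation medium. The 4 control libraries are SCs at 37°C on day 3 of growth medium. By the study's methods, control RNA was taken just before the cold step, after the incubation in HEPES medium that the cold libraries also had, although the labels of the controls do not name that medium. The 4 cold libraries are SCs given 48 h at 37°C and 24 h at 37°C in growth medium buffered with HEPES, followed by 24 h at 4°C. The treatment labels of the controls give 3, 4, 5 and 6 days at 37°C, whereas their titles put all 4 on day 3. Cold libraries were collected later than controls and no library kept at 37°C for the added day was analysed here, so that cold and the added day in culture cannot be told apart. Libraries are numbered 1 to 4 in each group, and a control and a cold library of the same number are called a pair.

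Library depth was 16530747 to 18533801 expected counts. The libraries of replicates 1 and 2 stood apart from those of replicates 3 and 4 in both groups, on the first principal component (54.5% of the variance), and cold stood apart from control on the second (17.9%). Myogenic markers fitted the label: Pax7, the defining transcription factor of SCs, was at 10.8 to 16.1 TPM and Myod1 at 424 to 693 TPM in every library. Ptprc, Adgre1 and Adipoq, defining markers of leukocytes, macrophages and adipocytes, were each at 0.03 TPM or less. Other markers of the same lists were detected in every library: Cd68 was at 23.3 to 52.0 TPM, Cd14 at 15.0 to 49.0 TPM and Csf1r at 2.31 to 4.55 TPM. The 6 macrophage and leukocyte markers summed to 40.9 to 97.3 TPM without and 44.1 to 104.7 TPM with cold, and the 4 adipocyte markers, mainly Pparg, to 1.93 to 6.50 TPM over all libraries. The 9 fibroblast markers with values, Col1a1 and Dcn among them, summed to 1218 to 1747 TPM without and 1204 to 1695 TPM with cold, and Pi16 was at 0 in all 8. RNA from bulk cultures was sequenced, so that fewer cells of a type and less RNA per cell cannot be told apart in any value below.

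Mymk, Mymx and Dysf were lower in the cold, and the other members lay within or close to the range of the controls. By edgeR, with TMM normalization and no other term, the log2 fold change of cold against control was −1.58 for Mymk (standard error 0.38), −0.97 for Dysf (0.13) and −0.38 for Mymx (0.07). The 3 genes were lower in 4 of 4 pairs, as were 10.5% of all genes tested, and their control and cold TPM did not overlap, as in 2.41% of all genes tested. Myof and Dock1 were higher in 4 of 4 pairs (12.8% of all genes) with overlapping groups, and none of the 8 had cold values wholly above the controls (2.27% of all genes). Over the 8 members the median log2 fold change was −0.05, with 4 genes below 0 and 4 above, against a median of 0.01 over all genes tested.

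**Figure D1:**
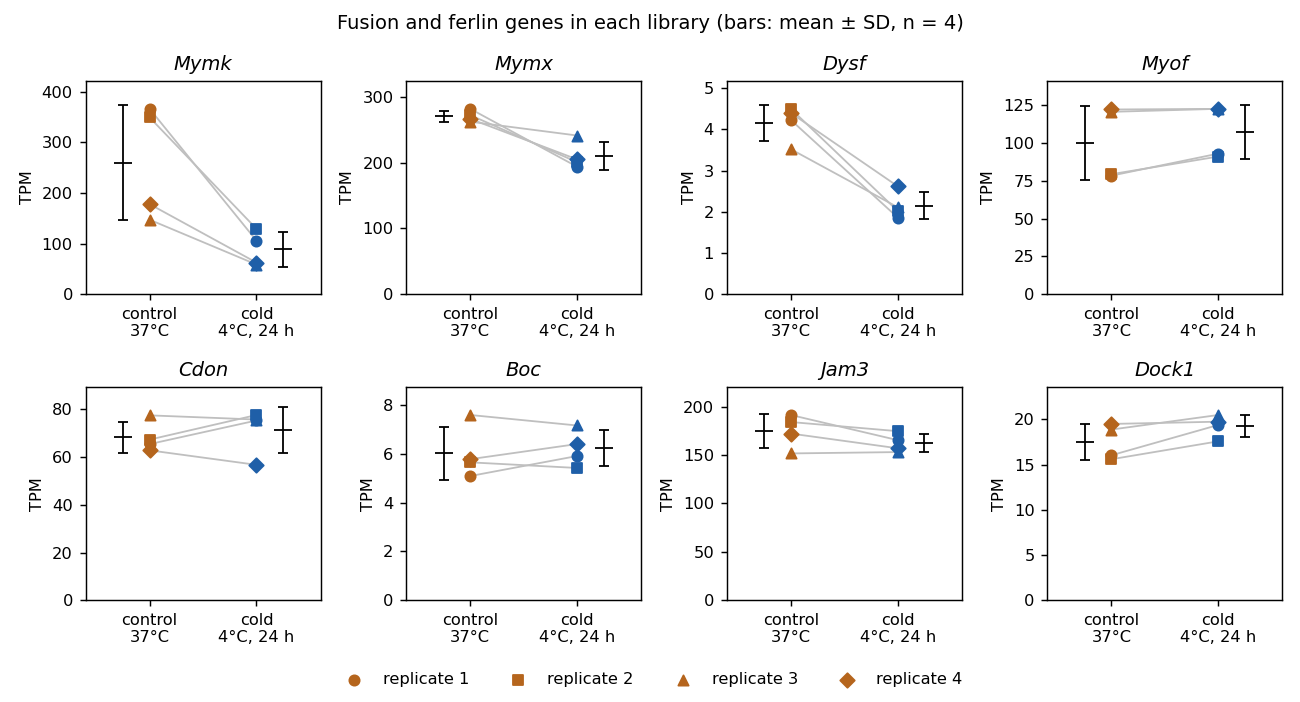
TPM of each gene in the 4 control libraries (brown) and the 4 cold libraries (blue), with marker shapes for replicate numbers, grey lines joining the libraries of a pair, and mean ± SD beside each group. In the panels for Mymk, Mymx and Dysf every cold point lies below every control point, while in the other 5 panels the groups overlap.

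Among the fusogens, the proteins that join the membranes, Mymk (NCBI Gene 101828324) varied most. It was at 366, 349, 147 and 178 TPM in control replicates 1 to 4. In cold replicates 1 to 4 it was at 106, 129, 58.5 and 62.3 TPM. Replicates 1 and 2 were the high libraries in both groups, and the highest cold value, 129 TPM, lay below the lowest control value, 147 TPM. The control mean of 260 ± 113 TPM (SD, n = 4) was 2.93 times the cold mean of 88.8 ± 34.2 TPM (SD, n = 4). Within pairs the log2 ratio of cold to control TPM was between −1.79 and −1.33, a far narrower spread than that between replicates, whose highest control value was 2.49 times the lowest. Mymk had at least 757 counts in each library.

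Mymx (110341279) had a different profile. In control replicates 1 to 4 it was at 282, 272, 262 and 267 TPM, the smallest relative spread of the 8 members (coefficient of variation 3.12%, against 43.7% for Mymk). Cold replicates 1 to 4 had 194, 201, 241 and 205 TPM. All 4 cold libraries were below the lowest control, and cold replicate 3 was the nearest to it. The mean was 271 ± 8.46 TPM at 37°C and 210 ± 21.2 TPM after cold (SD, n = 4 each), and the log2 ratio within pairs ran from −0.54 in pair 1 to −0.12 in pair 3. Thus the controls of replicates 1 and 2, which held 366 and 349 TPM of Mymk against 147 and 178 TPM in replicates 3 and 4, held nearly the same Mymx as those libraries.

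The balance between both fusogens, on the per-length TPM scale, followed from these profiles. Mymx over Mymk was 0.770, 0.780, 1.79 and 1.5 in control replicates 1 to 4 and 1.84, 1.56, 4.13 and 3.29 in cold replicates 1 to 4. The ratio was above its paired control in every cold library, although the cold libraries of replicates 1 and 2 were close to the controls of replicates 3 and 4. Mymk therefore stood above Mymx in only 2 libraries, control replicates 1 and 2.

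The ferlins differed in level. Dysf (101841263) was the least abundant member, at 4.23, 4.50, 3.52 and 4.40 TPM in control replicates 1 to 4 and 1.86, 2.02, 2.11 and 2.62 TPM in cold replicates 1 to 4. Every cold value was below every control value. The mean was 4.16 ± 0.443 TPM at 37°C and 2.15 ± 0.328 TPM after cold (SD, n = 4 each), a control level 1.93 times the cold level. Its log2 ratio was −1.18 and −1.16 in pairs 1 and 2 and −0.74 and −0.75 in pairs 3 and 4. Dysf rested on 155 to 373 counts per library. A RefSeq gene table of the species, which may not be the annotation behind the deposited values, lists 22 transcript models for Dysf, more than for any other member. The deposited values are per gene, so that isoforms were not distinguished.

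Myof (101835544) was at 78.5, 79.4, 121 and 122 TPM in control replicates 1 to 4 and at 93.1, 91.1, 123 and 123 TPM in cold replicates 1 to 4. Here replicates 3 and 4 were the high libraries in both groups, the reverse of Mymk, and the groups overlapped. Its log2 fold change was 0.09 (standard error 0.15), with log2 ratios of 0.25 and 0.20 in pairs 1 and 2 and 0.02 and 0.005 in pairs 3 and 4. It dropped to −0.001 when control replicate 1 was left out. Myof exceeded Dysf by 17.7 to 34.3 times in control and by 45.1 to 58.2 times in cold libraries, and these ranges did not overlap. The other ferlins were scarcely detected: Otof and Fer1l6 were at 0 TPM in all 8 libraries and Fer1l5 averaged 0 TPM before and 0.0075 TPM after cold. Summed fibroblast markers were also higher in replicates 3 and 4 (1478 and 1747 TPM in control, 1498 and 1695 TPM in cold) than in replicates 1 and 2 (1218 and 1242 TPM in control, 1295 and 1204 TPM in cold). Thy1, Col3a1, Dcn, Lum, Dpt and Pdgfra each had this order, but Col1a1 and Col1a2 were lowest in replicate 3 of both groups. In control replicates 1 to 4, Col1a1 was at 168, 174, 134 and 192 TPM and Col1a2 at 213, 241, 155 and 230 TPM. The part of fibroblasts in the Myof levels was not tested.

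**Figure D2:**
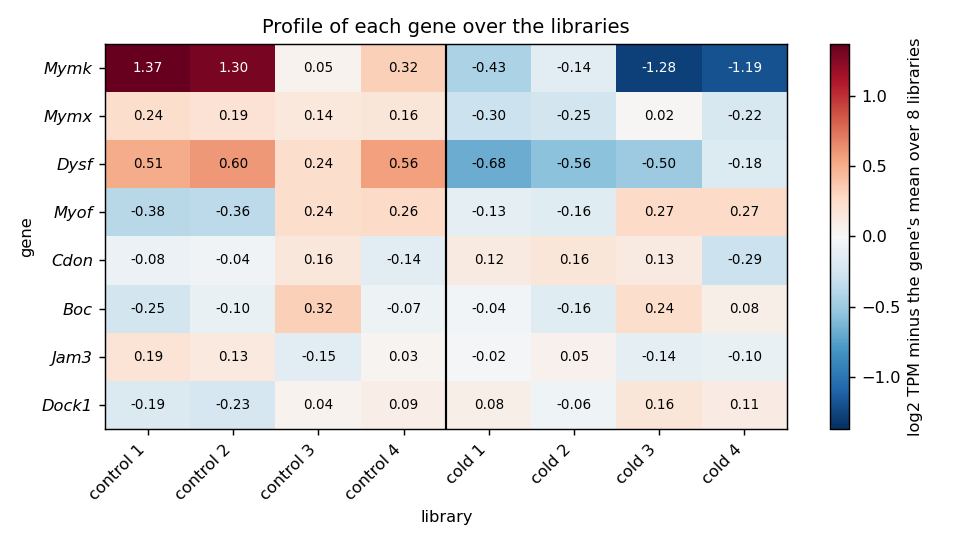
Profile of each gene over the 8 libraries, as log2 TPM minus the gene's own mean (red above, blue below, value written in each cell), with controls left and cold libraries right of the line. Mymk runs from 1.37 in control replicate 1 to −1.28 in cold replicate 3, Myof is below its mean in replicates 1 and 2 and above it in replicates 3 and 4 of both groups, and Cdon, Boc, Jam3 and Dock1 stay between −0.29 and 0.32.

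The surface receptors were at similar levels in both groups. Cdon (101841139) was at 65.4, 67.3, 77.5 and 62.8 TPM in control replicates 1 to 4 and 75.3, 77.6, 75.7 and 56.7 TPM in cold replicates 1 to 4. Cold replicate 4 held the lowest of these values and the groups overlapped. It was higher in the cold in pairs 1 and 2 and lower in pairs 3 and 4, with a log2 fold change of 0.04 (standard error 0.10) that fell to −0.01 when control replicate 4 or cold replicate 2 was left out. Boc (101839388), a close relative of Cdon, was 11.5 ± 1.17 times less abundant than Cdon in control and 11.6 ± 2.40 times in cold libraries (SD, n = 4 each). Boc was at 5.09, 5.65, 7.59 and 5.78 TPM in control and 5.91, 5.42, 7.16 and 6.40 TPM in cold replicates 1 to 4, higher in 2 pairs and lower in 2. Its log2 fold change was 0.03 (standard error 0.12), and its sign also changed when single libraries were left out, within −0.04 to 0.14.

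Jam3 (101840298), the adhesion molecule, was at 191, 184, 152 and 172 TPM in control replicates 1 to 4 and at 165, 175, 153 and 157 TPM in cold replicates 1 to 4. It was lower in 3 of 4 pairs with overlapping groups and a log2 fold change of −0.13 (standard error 0.10). Dock1 (106020891), the Rac1 activator, was at 16.0, 15.6, 18.9 and 19.5 TPM in control replicates 1 to 4. It was at 19.4, 17.6, 20.5 and 19.7 TPM in cold replicates 1 to 4, with a log2 fold change of 0.13 (standard error 0.06). Its means of 17.5 ± 1.97 and 19.3 ± 1.24 TPM (SD, n = 4 each) lay within about 1 SD of each other, and its log2 ratio ran from 0.27 in pair 1 to 0.02 in pair 4.

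Ordered by mean TPM in control libraries, the members were Mymx (271), Mymk (260), Jam3 (175), Myof (100.2), Cdon (68.3), Dock1 (17.5), Boc (6.03) and Dysf (4.16). Mymk overlapped with both Mymx and Jam3, and the other neighbours in this order did not overlap. In the cold the order was Mymx (210), Jam3 (162), Myof (107), Mymk (88.8), Cdon (71.4), Dock1 (19.3), Boc (6.22) and Dysf (2.15). Mymk thus moved from the second to the fourth place, with cold values that overlapped those of Myof and Cdon. Among all genes detected, Mymk was at percentile 96.5 in control and 89.2 in cold libraries, while Mymx was at 96.7 and 95.6.

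**Figure D3:**
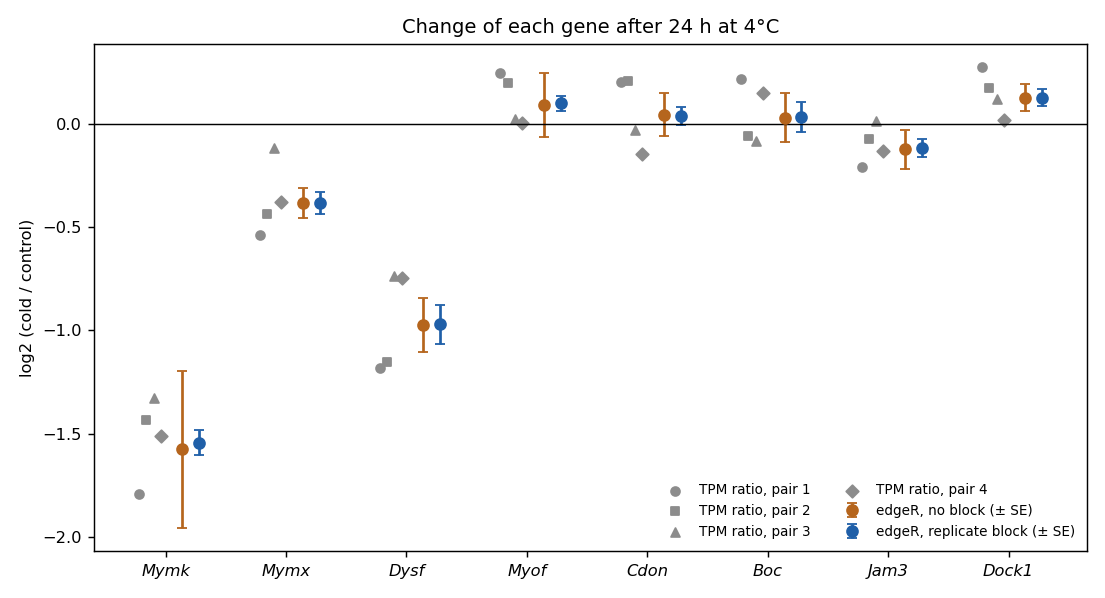
Log2 of cold over control for each gene: grey symbols are TPM ratios within the 4 pairs, and circles with bars are edgeR estimates ± standard error without (brown) and with (blue) the replicate number as a block. Both estimates nearly coincide for each gene, at −1.58 and −1.54 for Mymk, whose standard error is 0.38 without and 0.06 with the block.

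Libraries of the same number deviated together from their group means (correlation over genes of 0.609 to 0.659). Replicates 1 and 2 did so nearly as much across numbers (0.569 and 0.591), and no label states the pairing. With that limit, the fit was also made with the replicate number as a block. It left the estimates almost where they were, at −1.54 for Mymk (standard error 0.06), −0.97 for Dysf (0.10) and −0.38 for Mymx (0.05). The number of members at an adjusted p under 0.05 was 1 without the block (Dysf, lower in the cold), where 0.072% of all genes were called lower and 0% higher. With the block it was 3 (Mymk, Mymx and Dysf, all lower), where 4.07% of all genes were called lower and 1.26% higher. Mymk was the only member that also reached a log2 fold change of −1 with the block, as did 0.808% of all genes. These counts, and the calls behind them, use the comparison with which the members were chosen and are no independent test. Dysf kept its call without the block in only 1 of the 8 fits that each left out a library, that without control replicate 3, and its log2 fold change stayed between −1.08 and −0.91 in those 8 fits.

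Other genes of the fusion pathway were taken from 6 lists, written from general knowledge with earlier results of these data known, and holding none of the 8 members. Of 111 genes, 108 had values and 94 were tested. Without the block, edgeR called 0 of the 94 at an adjusted p under 0.05 (9 at an unadjusted p under 0.05, beside 516 lower and 322 higher of all 12506 genes). DESeq2 called 3 (Cav3, Mef2c and Tmem182), all lower, beside 133 lower and 3 higher of all genes. With the replicate block edgeR called 11 lower and 1 higher of the 94, where 4.07% of all genes were called lower and 1.26% higher, and the median log2 fold change of the 94 was 0.02 in the fit without it. The numbers below are from the fit with the block, with adjusted p from edgeR, and none of these genes was called by edgeR without the block under the same filter and libraries. Unblocked edgeR called Tmem182 when no filter was used or when control replicate 3 was left out.

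Among regulators of fusion, 4 of 19 tested genes were called, all lower, beside the 4.07% of all genes. With so few genes a list, no list is set apart from the others by these counts. Mef2c, a transcription factor of muscle differentiation, had 23.2 ± 10.3 TPM at 37°C and 8.44 ± 2.18 TPM after cold (SD, n = 4 each), and it fell by 1.43 on the log2 scale (adjusted p = 3.43e-09 with edgeR). Myog, which encodes the differentiation factor myogenin, fell by 0.71 on the log2 scale (edgeR adjusted p = 2.96e-09), and its control libraries were at 1008, 1016, 449 and 480 TPM in replicates 1 to 4, with the same high libraries as Mymk. Tmem182, a muscle membrane protein known to restrain fusion, had 12.6 ± 1.87 TPM at 37°C and 6.86 ± 0.828 TPM after cold (SD, n = 4 each), and it fell by 0.90 (edgeR adjusted p = 1.29e-05). Myod1 fell by 0.13 (edgeR adjusted p = 0.02). The other 15 were not called, among them Adam12, a metalloprotease of fusing myoblasts, with means of 119 TPM before and 123 TPM after cold.

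In the list of other ferlins and membrane repair, 3 of 19 tested genes were called, all lower. Cav3, the muscle caveolin, had 7.05 ± 4.44 TPM at 37°C and 1.6 ± 0.897 TPM after cold (SD, n = 4 each), and it fell by 2.15 on the log2 scale (edgeR adjusted p = 5.91e-07). Trim72, which encodes the membrane repair protein MG53, fell by 0.78 on the log2 scale (edgeR adjusted p = 3.30e-06), and Cavin4, a muscle caveolae protein, fell by 0.16 (0.0112). The abundant annexins, calcium-dependent membrane-binding proteins that take part in repair, were not called: Anxa2 was at 1517 ± 51.0 TPM before and 1656 ± 63.9 TPM after cold (SD, n = 4 each; edgeR adjusted p = 0.0566), and Anxa5 had a log2 fold change of −0.05.

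Of 16 tested genes for adhesion and recognition, 3 were called, all lower. Itga4, an integrin subunit, fell by 0.91 on the log2 scale (edgeR adjusted p = 3.79e-07). Cdh15, the muscle cadherin, fell by 0.32 from 174 ± 30.6 TPM (SD, n = 4), with an edgeR adjusted p of 1.19e-05. Itga7, the laminin-binding integrin subunit of muscle, fell by 0.29 from 209 ± 31.2 TPM (SD, n = 4), with an edgeR adjusted p of 1.14e-05. Cdh2 (N-cadherin) and Itgb1 were at 100.5 and 458 TPM in control libraries with log2 fold changes of 0.02 and 0.01.

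In the actin remodelling list, 25 of 26 tested genes were not called, and their list had a median of 0.04 on the log2 scale in the fit without the block. Arhgap26, a GTPase-activating protein also named GRAF1, fell by 0.40 (edgeR adjusted p = 0.00756) from 2.77 ± 0.180 TPM (SD, n = 4). Rac1, on which Dock1 acts, averaged 299 ± 20.1 TPM before and 316 ± 9.11 TPM after cold (SD, n = 4 each; edgeR adjusted p = 0.321), and Dock5, a relative of Dock1, was at 29.9 and 32.9 TPM. Of 9 tested Hedgehog genes, the pathway for which Cdon, Boc and Gas1 serve as coreceptors, 0 were called with or without the block (edgeR; 0 at an unadjusted p under 0.05, and 0 with DESeq2). Their estimates without the block were higher after cold in 8 of the 9, with a median of 0.11 on the log2 scale. Gas1 was at 22.3 TPM before and 24.3 TPM after cold. Jam2, a binding partner of Jam3, averaged 0.205 TPM before and 0.172 TPM after cold.

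**Figure D4:**
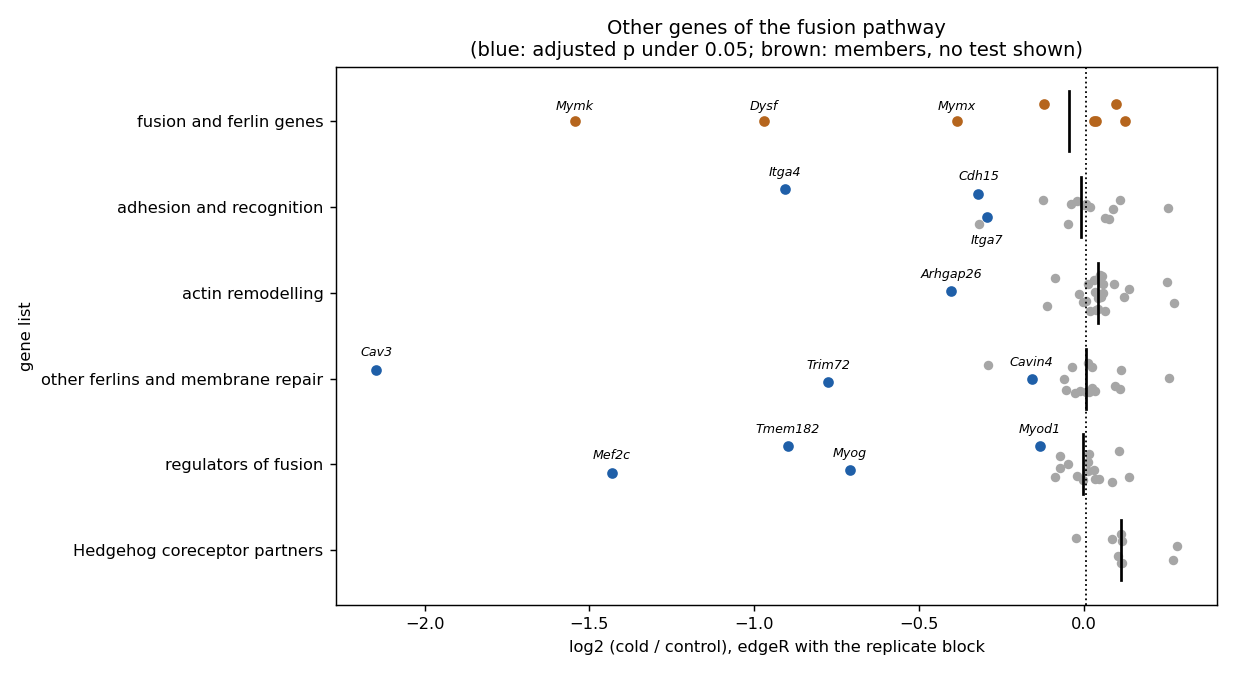
Log2 of cold over control (edgeR with the replicate block) for every tested gene of 5 of the 6 lists (JAM relatives and junction partners are not drawn), with list medians as vertical bars and the median of all genes tested as a dotted line. Blue points have an adjusted p under 0.05, brown points are the 8 members, and Cav3 (−2.15) and Mef2c (−1.43) lie farthest left of the list genes, while the list medians lie near 0.

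Markers of differentiating myocytes moved in the same direction as Mymk. Of 12 such markers, 11 were tested. All 11 had lower estimates after cold (median −1.45 on the log2 scale without the block), and 2 were called without and 11 with the block at an adjusted p under 0.05 by edgeR. Their summed level was 4080, 4061, 2030 and 2156 TPM in control replicates 1 to 4. It was 1588, 1855, 1136 and 931 TPM in cold replicates 1 to 4, so that replicates 1 and 2 were the high libraries for these markers as for Mymk. The 10 markers of SCs and myoblasts, which include Pax7, Myf5 and Myod1, summed to 2251 to 2694 TPM without and 2131 to 2485 TPM with cold. Des, Myod1 and Ncam1 carried much of that sum, and 4 of the 10 (Itga7, Cdh15, Chrna1 and Myod1) were called lower by edgeR with the block and 0 without it (1 at an unadjusted p under 0.05, and 1 by DESeq2). Of the 5 smooth muscle and pericyte markers, Acta2 moved with Mymk and carried the sum of the list. By the estimates without the block, 3 of the 5 were lower after cold and 2 higher. Their sum was 1983, 1811, 1157 and 1284 TPM in control replicates 1 to 4 and 1213, 1291, 991 and 1018 TPM in cold replicates 1 to 4, lower in 4 of 4 pairs. Acta2, a smooth muscle actin, made up most of it, at means of 1526 TPM before and 1097 TPM after cold, and was the only 1 of the 5 called with the block (edgeR adjusted p = 2.68e-05). The defining marker Myh11 averaged 2.37 TPM before and 2.41 TPM after cold. Notch3 averaged 1.81 and 2.075 TPM, Cspg4 28.28 and 26.85 TPM, and Rgs5 0.385 and 0.295 TPM. Endothelial markers summed to 2.44 to 4.65 TPM and Schwann cell markers to 2.39 to 3.91 TPM over all libraries. The part of smooth muscle cells or of the number of differentiating cells in the Mymk, Mymx and Dysf levels was not tested.

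The genes with the profile most like each member were searched among 10479 genes, by Pearson's r of log2(TPM + 0.1) over the 8 libraries. These libraries share group and replicate number, and fall into separate clusters, so that r is given as a description only. The genes nearest to Mymk were Srl (r = 0.997), Svil (0.995) and Synpo2l (0.994), with log2 fold changes of −1.51, −1.16 and −0.86 without the block. Srl encodes sarcalumenin, a calcium-binding protein of the sarcoplasmic reticulum, and Svil encodes supervillin, an actin-binding protein of the membrane. Those nearest to Mymx were Cobl (0.973), Rtn2 (0.963) and Atp6v0c (0.961), and those nearest to Dysf were Kiaa1614 (0.986), Mstn (0.977) and Jph2 (0.977). Mstn encodes myostatin, and Jph2 a junctophilin that links the sarcoplasmic reticulum to the cell membrane. No gene was shared between these 3 sets.

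Among the other members, the nearest genes to Myof were Ect2, Adam12 and Raph1 (r between 0.996 and 0.997), and those to Dock1 were Rac1 (0.986), Kcnk5 (0.985) and Pcolce (0.985). Cdon was nearest to Dnajb14, Snrnp40 and Glg1 (0.947 to 0.968), Boc to Wnt5b, Orai2 and Smad9 (0.975 to 0.982) and Jam3 to Mrpl35, Pmp22 and Enah (0.972 to 0.975). Between members, the values of r farthest from 0 were −0.93 for Boc with Jam3, 0.88 for Myof with Dock1, 0.88 for Mymx with Dysf and −0.88 for Mymk with Dock1. Mymk had r of 0.84 with Jam3, 0.77 with Dysf and 0.68 with Mymx, so that the 3 genes lower in the cold were not each other's nearest members throughout.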

How the data were processed

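RNA-seq of 8 libraries (paired-end 150 bp) was deposited by the authors as a table with estimated counts (expected counts, not normalized), TPM, normalized by the authors, and normalized counts, a signal that the authors made by multiplying the counts of each library by a factor (0.924 to 1.02). The normalized counts were used only to obtain these factors. HISAT and HISAT2 are named in the submitters' processing notes. The counting program, genome build and annotation are not given in the sources used here. Values were present for 17590 of 31581 entries. The counts of all 8 members were whole numbers in all 8 libraries.

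Expected counts were rounded and fitted for all genes with edgeR 4.0.16 (filterByExpr, TMM, quasi-likelihood F test) in R 4.3.3, with Benjamini-Hochberg adjustment over 12506 genes. Calls were made at an adjusted p under 0.05. Standard errors are the absolute log2 fold change over the square root of F. DESeq2 1.42.0 and limma 3.58.1 on log2 TPM were alternatives. The code was tested on simulated data.

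The members and lists were chosen with earlier results of these data known. The named genes are all members, up to 5 called genes per pathway list in either fit, and the 3 genes with the highest r to each member, among genes with a mean of at least 1 TPM and no LOC symbol. Other genes named were chosen after their values were seen. Of the 12 pathway genes called with the block, 1 is not reported here.

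Titles and columns number the libraries 1 to 4 in each group, and nothing says what a number marks. Deviations from the group mean, correlated across genes (which are not independent replicates), had r between 0.609 and 0.659 for same-numbered libraries and between −0.609 and 0.591 for others, so the numbers were taken to pair the libraries. The labels do not say whether replicates came from separate animals, so p-values measure only the spread between these libraries. Their chi-square per gene (near 1 for resampling of a single library) was at least 2.46, and no library was counted as a copy.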

Additional observations from a re-analysis of the deposited data

Results flagged for a closer look

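Groups of 4 libraries were searched for a TPM value isolated from the other 3 (Dixon's test of the gap to the nearest value against the whole range). Of 40 groups (the 8 members and 12 pathway genes called with the block, in control and in cold), 2 had such a value, and chance gives about 1 in 20. Cdon was at 56.7 TPM in cold replicate 4, while the other cold libraries were between 75.3 and 77.6 TPM. Tmem182 was at 15.4 TPM in control replicate 1, while the other controls were between 11.4 and 11.9 TPM.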

How the results depend on the processing

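Members kept their direction under all 19 alternatives in the case of Mymk (log2 fold change −1.83 to −1.36), Dysf (−1.23 to −0.71), Mymx (−0.54 to −0.24), Jam3 (−0.20 to −0.05) and Dock1 (0.08 to 0.16). Myof had 1 alternative below 0, and Cdon and Boc had 3 each. Without the block, edgeR called 9 genes of the whole table as lower and 0 as higher (516 and 322 at an unadjusted p under 0.05). The numbers lower and higher were 14 and 0 with library totals, 25 and 0 with no filter, 4 and 0 with the stricter filter (a mean of 10 counts in each group) or with limma on log2 TPM at either pseudocount (0.1 or 1), 5 and 0 when a 2-fold difference was also asked for, 133 and 3 with DESeq2, 314 and 36 with DESeq2 and the replicate block, and 509 and 158 with edgeR and the replicate block. Leaving out single libraries gave 0 to 45 lower and 0 to 1 higher, the most without control replicate 3. Fits with the block to replicates 1 and 2 alone or 3 and 4 alone, chosen after seeing the data, gave 1174 lower and 961 higher, and 289 and 83.

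Members called lower numbered 1 in the fit without the block, 3 in DESeq2, in DESeq2 with the block, in edgeR with the block and in replicates 3 and 4 alone, 4 in replicates 1 and 2 alone (where 3 were called higher), and 0 in limma, with the stricter filter or with the fold threshold. Leaving out single libraries gave 0 to 1. Pathway genes called lower and higher numbered 0 and 0 without the block, 1 and 0 with no filter, 3 and 0 in DESeq2, 10 and 1 in DESeq2 with the block, 11 and 1 in edgeR with the block, 13 and 11 in replicates 1 and 2 alone, and 9 and 1 in replicates 3 and 4 alone. Leaving out single libraries gave 0 to 1 lower and 0 higher. Beside these counts, the whole table had 9 genes called lower without the block, 133 in DESeq2 and 314 in DESeq2 with the block. It had 509 in edgeR with the block and 289 in replicates 3 and 4 alone. In replicates 1 and 2 alone, 1174 genes were called lower and 961 higher. The counts of members are therefore no result about the members. All 12 pathway genes called with the block kept their sign in all 228 values. The cause of these moves was not tested. Dysf had 155 to 373 counts per library and Boc 264 to 372, the fewest of the members. The intended description of member sequences was not run, because no sequence was at hand.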

Other observations

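Levels of Mymk relative to Myog, a ratio chosen after its values were seen, varied little within a group. Mymk over Myog in TPM was 0.363, 0.343, 0.327 and 0.370 in control replicates 1 to 4, although both genes differed over 2-fold between these libraries. In cold replicates 1 to 4 it was 0.187, 0.205, 0.186 and 0.213, so that Mymk was lower in the cold also relative to Myog, with means of 0.351 ± 0.0196 in control and 0.198 ± 0.0135 in cold libraries (SD, n = 4 each). Mymx over Myog did not hold within a group. It was 0.280, 0.268, 0.584 and 0.556 in control and 0.344, 0.320, 0.769 and 0.703 in cold replicates 1 to 4, higher in the cold in 4 of 4 pairs. Dysf over Myog fell below its paired control in all 4 cold libraries, from 0.00420 to 0.00330 in pair 1 and from 0.00917 to 0.00898 in pair 4. Per 1000 TPM of summed myocyte markers, Mymk was at 72.4 to 89.7 TPM in control and 51.5 to 69.5 TPM in cold libraries. No test was made of these ratios, since they use the comparison with which the members were chosen.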
